A study of Ovis aries with 54 samples.

Results

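The transcripts of the sheep mitochondrial genome were followed in lung. They were all rows of the deposited count table whose names start with KEF53_, a choice made by name and not by any measured value, and there were 37 of them among 30184 rows. Of these rows, 13 were protein-coding, 22 were transfer RNAs and 2 were ribosomal RNAs, and the 13 protein-coding rows were paired with symbols through the RefSeq gene table of assembly ARS-UI_Ramb_v3.0. The table held no names for the RNA rows, which are therefore called here by their identifiers.

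The series is an RNA-seq study of a sheep model of chronic obstructive pulmonary disease, in which lung lobes are exposed to an enzyme that digests elastin and to a bacterial wall product. Of the 18 pieces, 7 came from lobes given porcine elastase and lipopolysaccharide (PE/LPS), 7 from saline lobes of the same 7 sheep (numbers 1, 2, 8, 11, 14, 15 and 16), and 4 from control sheep (numbers 7, 9, 10 and 18), with 1 piece each and a treatment label that reads only control. Every PE/LPS piece has the code LC in its title and every saline piece the code RA, so that treatment and code cannot be told apart in the exposed sheep. Of the control pieces, 2 are LC (sheep 10 and 18) and 2 are RA (sheep 7 and 9). The labels give no dose, time, age, breed or sex. They do not say what LC and RA stand for, nor what the characters after the code in 4 titles stand for (the PE/LPS pieces of sheep 2, 8 and 11 and the control piece of sheep 9). Each piece was sequenced as 3 libraries, and a sheep counted once per group.

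Of the 54 libraries, all but 1 held 2777537 to 16215732 counts, and the exception, PE/LPS sheep 11 library 1, held 115109. Summed per piece, the totals ran from 9653262 to 41946705 counts. All 11 lung epithelial markers were counted in every group, with a summed level of 5613 to 108200 CPM (counts scaled to a piece total of 1000000) in PE/LPS pieces, 27310 to 97050 CPM in saline pieces and 26910 to 57740 CPM in control pieces. The 9 leukocyte markers in the table summed to means of 2499 CPM in PE/LPS, 2156 CPM in saline and 2704 CPM in control pieces.

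Mitochondria keep a small circular genome of their own, which is read from both strands as long precursor RNAs. The transfer RNAs lie between most of the other genes and are cut out, which frees the messenger and ribosomal RNAs, and most of the messengers then receive a short poly(A) tail. The messengers encode membrane subunits of respiratory complexes I, III and IV and of ATP synthase, while all other subunits of these complexes come from nuclear genes. The libraries were primed on poly(A), and CPM is not corrected for gene length. Shares of the mitochondrial counts and ratios between rows carry the same limits. Where different mitochondrial genes are set against each other below, the values therefore describe counts and not relative amounts of transcript. CPM values are compared between pieces.

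Mitochondrial counts were near 1% of all counts in every group, and the groups overlapped. The share was lowest at 0.632%, had a median of 1.029% and was highest at 1.622% in PE/LPS pieces. In saline pieces it ran from 0.839% through a median of 1.257% to 1.508%. The control sheep 7, 9, 10 and 18 had 1.685%, 0.768%, 1.312% and 1.589%. The means were 1.022% ± 0.321 in PE/LPS (SD, n = 7), 1.186% ± 0.276 in saline (SD, n = 7) and 1.338% ± 0.412 in control pieces (SD, n = 4), and each difference between 2 means was smaller than the SD of either group. Without the pieces whose titles carry further characters, the mean was 1.165% ± 0.34 in PE/LPS (SD, n = 4) and 1.528% ± 0.193 in control pieces (SD, n = 3). The differences from control were then -0.363 points in PE/LPS and -0.342 in saline pieces. Each was larger than the SD of either group, and the ranges still overlapped. In a piece of tissue, fewer cells of a type rich in mitochondria and less mitochondrial RNA per cell cannot be told apart.

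Within sheep, the PE/LPS piece had the lower share in 6 of 7 pairs. The differences were -0.449 percentage points in sheep 1, -0.479 in sheep 2, -0.195 in sheep 8, -0.206 in sheep 11, -0.075 in sheep 14 and -0.085 in sheep 16, while sheep 15 went the other way by 0.337. Their mean was -0.165 points (SD 0.273, SE 0.103). It was -0.068 points over the 4 sheep whose titles carry no further characters, and -0.007 points over the sheep with no library numbered S46 to S54 in its title; the PE/LPS pieces of sheep 2 and 8 and the saline piece of sheep 1 carry those numbers. The 3 libraries of a piece lay close together, with an SD of 0.012 to 0.064 points in 17 of the 18 pieces. In the remaining piece, PE/LPS sheep 11, the shallow library 1 had a share of 1.109%, against 0.621% and 0.639% in libraries 2 and 3.

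**Figure D1:**
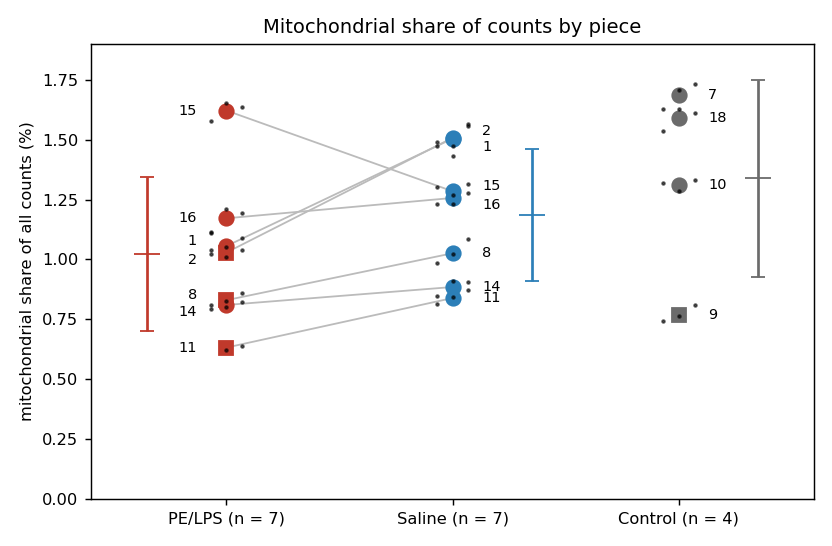
Share of all counts that fell on the mitochondrial rows (%), by group. Large symbols are pieces with their sheep numbers, small dots are the 3 libraries of each piece, grey lines join pieces of the same sheep, squares mark titles with characters after the code, and bars show the mean ± SD. In 6 of 7 sheep the PE/LPS piece lies below the saline piece, and all groups overlap.

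A few rows carried most of the mitochondrial counts. ATP6, a subunit of the proton channel of ATP synthase, took 22.9% of them over all libraries. The complex I subunit ND2 took 16.0%, and the core subunits of cytochrome c oxidase took 13.8% (COX1), 13.1% (COX2) and 12.2% (COX3). The ribosomal rows KEF53_r01 and KEF53_r02 took 7.66% and 6.02%. ND3, a small complex I subunit, followed with 5.11%.

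The remaining protein-coding rows held far fewer counts. ND4 had 1.59%, CYTB, the mitochondrial subunit of complex III, 0.610%, ND4L 0.414%, ATP8 0.375% and ND1 0.178% of the mitochondrial counts. ND5 and ND6, both complex I subunits, were nearly without counts: ND5 had 8 in all, spread over 3 pieces, and ND6 had 21, spread over 7 pieces. A count of 3 over all libraries would have been 0.00617 CPM. In the RefSeq table ATP8 overlaps ATP6, ND4L overlaps ND4, and ND5 overlaps ND6. The counting rule for reads in shared stretches, and for reads that also match copies of mitochondrial DNA in the nuclear genome, was not given, so the levels of these rows are uncertain.

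Among the transfer RNAs, 19 of 22 rows had no count in any of the 54 libraries and KEF53_t18 had 2 counts. The exceptions were KEF53_t22, with 6006 counts or 0.102% of the mitochondrial total, and KEF53_t14, with 619 counts or 0.0105%. KEF53_t14 lies between COX2 and ATP8, and KEF53_t22 follows KEF53_t21, which follows CYTB. In all, 18 of the 37 rows had a count, and 15 of them passed the filter on low counts in each comparison: 11 protein-coding rows, both ribosomal rows, KEF53_t14 and KEF53_t22.

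**Figure D2:**
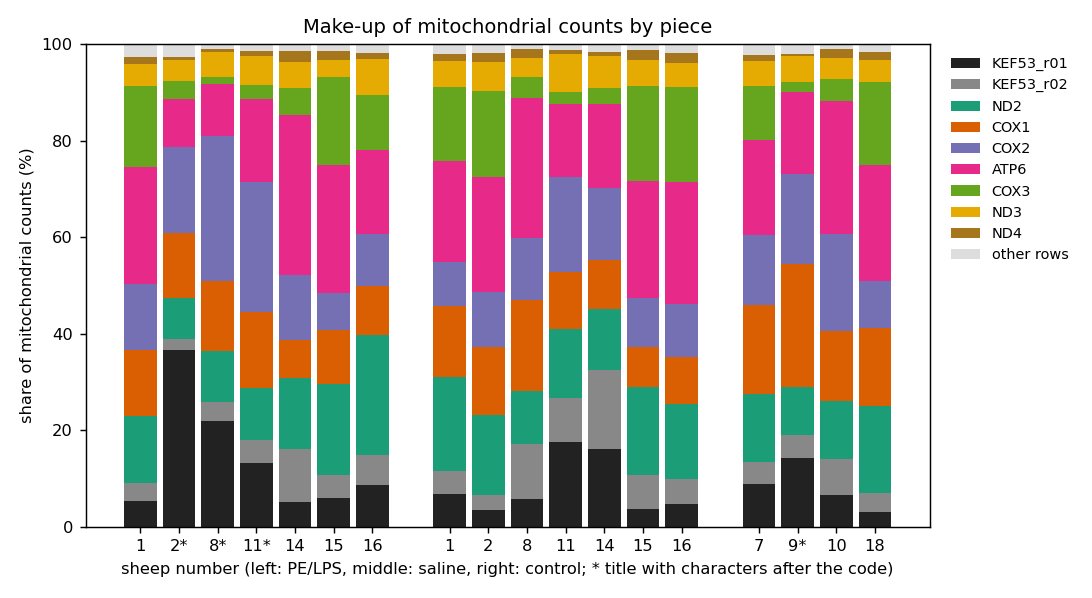
Share of the mitochondrial counts (%) held by each row in each of the 18 pieces, with PE/LPS at the left, saline in the middle and control at the right; the numbers are sheep and an asterisk marks a title with characters after the code. KEF53_r01 reaches 36.5% of the mitochondrial counts in the PE/LPS piece of sheep 2, and COX3 holds at most 5.617% in both pieces of sheep 8, 11 and 14, the PE/LPS piece of sheep 2 and control sheep 9 and 10.

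Both ribosomal rows varied, and not together. They held 9.17% to 38.8% of the mitochondrial counts in PE/LPS pieces (median 16.1%), 6.64% to 32.5% in saline pieces (median 11.5%) and 7.0% to 19.1% in control pieces. The ratio of KEF53_r01 to KEF53_r02 was 0.478 at its lowest, 1.416 at its median and 15.8 at its highest in PE/LPS pieces, against 0.496, 0.989 and 1.903 in saline pieces, and 0.796 to 2.916 in control pieces. The 4 pieces whose titles carry further characters had ratios from 2.865 to 15.8, all above the 0.478 to 1.903 of the other 14 pieces. They had 899.8 to 1298 CPM of ATP6, at the low end of the 1273 to 4276 CPM of the other 14. The number of genes, ratios or marker sums that separate the same 4 pieces from the others was not counted.

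Markers of ciliated airway cells were also lowest in those 4 pieces. The 10 markers of ciliated airway cells summed to 147.6, 293.8 and 322.0 CPM in the PE/LPS pieces of sheep 2, 8 and 11 and to 256.8 CPM in the control piece of sheep 9, while the other pieces had at least 339.0 CPM. The 34 nuclear genes of oxidative phosphorylation found in the table summed to 10470, 6361, 7991 and 9400 CPM in the same order, against 3475 to 7746 CPM in the other 14 pieces, so that the PE/LPS piece of sheep 8 lay within the range of the others. Sheep 2 (PE/LPS) and sheep 9 (control) had the highest such sums of all pieces, 10470 and 9400 CPM, with mitochondrial shares of 1.029% and 0.768%. What part the make-up of these pieces has in the mitochondrial values was not tested.

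PE/LPS pieces were compared with saline pieces of the same sheep, a contrast in which treatment and code coincide, and no mitochondrial row passed the test. With edgeR's quasi-likelihood test, the sheep as a block and Benjamini-Hochberg adjustment over 16944 genes, 0 of 15 rows were called, as were 0 of all genes (0%). DESeq2 called 47 genes (0.277%) and voom 0 (0%), in neither case a mitochondrial row. The log2 fold change was positive for 5 rows and negative for 10. Their median was -0.23, against -0.03 over all genes tested, of which 47.2% were positive. The median was 0.01 without the sheep whose titles carry further characters and 0.14 without those with libraries S46 to S54.

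KEF53_r02 had the smallest p of the mitochondrial rows. Its CPM ran from 237.8 through a median of 402.3 to 883.3 in PE/LPS pieces, and from 492.6 through 773.3 to 1447 in saline pieces. The PE/LPS piece was lower in 6 of 7 sheep, though the groups overlapped, with means of 522.3 ± 263.3 CPM under PE/LPS and 878.9 ± 332.3 CPM under saline (SD, n = 7 each). The log2 fold change was -0.73 (SE 0.302, 95% interval -1.38 to -0.07), with an unadjusted p of 0.0322 and an adjusted p of 0.771 in edgeR's quasi-likelihood test. It was the 1 row of 15 with an unadjusted p under 0.05, where 3.25% of all genes tested had such a p with lower values in PE/LPS and 2.51% with higher values. Without the sheep whose titles carry further characters its log2 fold change was -0.30. Leaving out sheep 2, 8 or 11 alone gave unadjusted p-values of 0.0588, 0.0995 and 0.0886 in the same edgeR test.

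KEF53_r01 did not follow it. Its CPM was 421.9 at the lowest, 956.3 at the median and 3758 at the highest in PE/LPS pieces, against 468.9, 587.9 and 1472 in saline pieces. The PE/LPS piece was higher in 4 of 7 sheep. The log2 fold change was 0.46 (SE 0.507), and -0.10 without the sheep whose titles carry further characters. KEF53_t14 had the smallest p among rows with higher values in PE/LPS (log2 fold change 0.98, SE 0.716, p = 0.196, adjusted p = 0.788 in edgeR's quasi-likelihood test), on 4 to 63 counts per piece.

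The messengers of complex IV had different spreads over pieces. COX3 ran from 115.1 through 455.1 to 2956 CPM in PE/LPS pieces and from 208.6 through 2323 to 2685 CPM in saline pieces (log2 fold change -0.64, SE 0.471). COX1 ran from 627.5 through 1218 to 1838 CPM in PE/LPS pieces and from 901.5 through 1225 to 2233 CPM in saline pieces (-0.15, SE 0.307). COX2 ran from 1094 through 1426 to 2489 CPM in PE/LPS pieces and from 1289 through 1349 to 1709 CPM in saline pieces (0.19, SE 0.279). COX3 was at 0.01 without the sheep whose titles carry further characters and 0.07 without those with libraries S46 to S54. None of these differences was larger than the spread between pieces, and the ranges of all 3 genes overlapped.

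For complex I, the log2 fold changes were -0.29 for ND2 (SE 0.318), -0.30 for ND3 (SE 0.240), -0.41 for ND4 (SE 0.449), 0.07 for ND4L (SE 0.294) and -0.03 for ND1 (SE 0.268). CYTB of complex III had 0.18 (SE 0.263). For ATP synthase they were -0.39 for ATP6 (SE 0.431) and -0.23 for ATP8 (SE 0.349). KEF53_t22 had -0.51 (SE 0.726). ATP6 and ND4 changed sign without the sheep whose titles carry further characters and without those with libraries S46 to S54, reaching 0.19 and 0.33. Adjusted p in edgeR's quasi-likelihood test lay between 0.771 and 0.988 for all 15 rows. The unadjusted 95% intervals reached a median of 0.689 to either side, so that changes smaller than this were mostly not detectable with 7 sheep. Larger changes could also miss a call after adjustment, as KEF53_r02 did at -0.73.

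**Figure D3:**
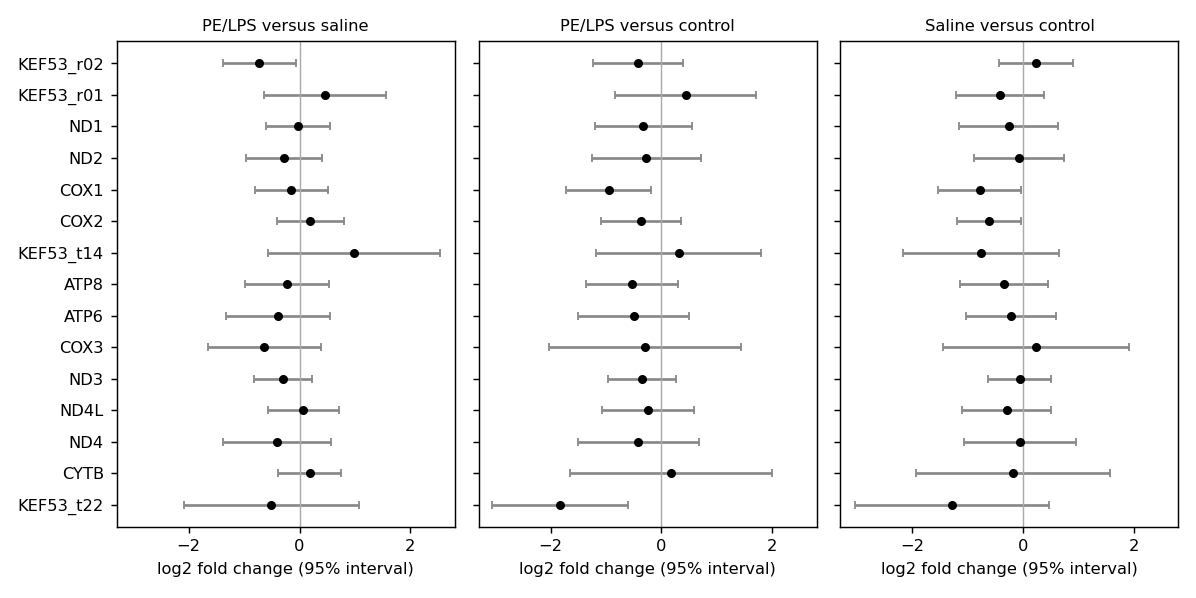
Log2 fold changes with 95% intervals of the 15 tested mitochondrial rows for PE/LPS versus saline within sheep, PE/LPS versus control and saline versus control (edgeR). KEF53_r02 lies below 0 in the first panel, COX1 and KEF53_t22 in the second, and COX1 and COX2 in the third, all with unadjusted intervals.

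The lowest within-sheep ratios of COX3, ND4 and ATP6 were those of sheep 2 and 8. In sheep 2, the PE/LPS to saline ratio was -2.76 on the log2 scale for COX3, -2.10 for ND4 and -1.82 for ATP6, while KEF53_r01 stood at 2.88 and COX2 at 0.09. In sheep 8, COX3 was at -2.005, ND4 at -1.97 and ATP6 at -1.73, with KEF53_r01 at 1.63 and COX2 at 0.93. In both sheep, then, these 3 messengers were lower in the PE/LPS piece, and so were ND1, ND2, COX1, KEF53_r02 and KEF53_t22. KEF53_r01, KEF53_t14, COX2 and CYTB were higher in both, and the other tested rows differed in sign between these sheep. Both PE/LPS pieces have further title characters and libraries numbered S46 to S54, while both saline pieces have neither. In these ratios that difference and treatment cannot be told apart.

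Sheep 16 had the same signs for these 3 messengers and KEF53_r01, with smaller ratios (COX3 -0.87, ND4 -0.84, ATP6 -0.65 and KEF53_r01 0.80, with COX2 at -0.14). In sheep 1 all 3 messengers were lower in the PE/LPS piece (-0.40, -0.40 and -0.29), and so was KEF53_r01 (-0.86). The remaining pairs had other patterns. In sheep 11, whose PE/LPS title also carries a further character, COX3 was at -0.14, ND4 at 0.12, ATP6 at -0.23 and KEF53_r01 at -0.81. Sheep 14 had higher COX3 (0.67), ND4 (1.33) and ATP6 (0.81) in the PE/LPS piece and lower KEF53_r01 (-1.76). In sheep 15 all of COX3, ND4, ATP6 and KEF53_r01 were higher in the PE/LPS piece (0.22, 0.32, 0.45 and 1.03). KEF53_t22 spanned the widest range, from -2.47 in sheep 2 to 5.29 in sheep 15, where the saline piece had 15 counts.

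**Figure D4:**
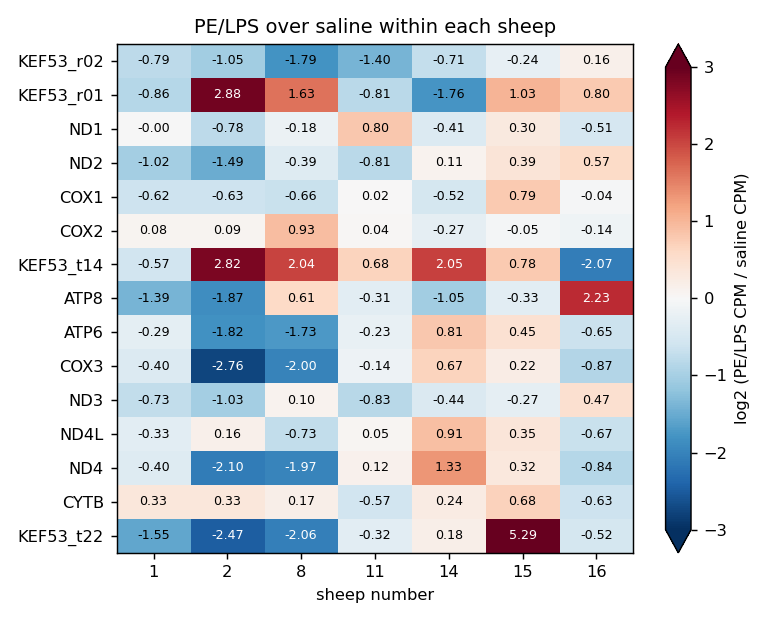
Log2 ratio of CPM in the PE/LPS piece over CPM in the saline piece for the 15 tested rows (down) in each of the 7 sheep (across); red is higher and blue lower in PE/LPS, and colours saturate at 3. Sheep 2 and 8 show low ratios for COX3, ND4 and ATP6 beside high ratios for KEF53_r01.

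PE/LPS pieces were also set against control sheep, and again 0 of 15 rows and 0 of 18340 genes (0%) passed edgeR's quasi-likelihood test. DESeq2 called 0 genes (0%) and voom 0 (0%). Of the rows, 3 were positive and 12 negative, with a median log2 fold change of -0.35 against 0.02 over all genes, of which 52.1% were positive. The median was -0.16 without control sheep 7 and -0.49 without control sheep 9. An unadjusted p under 0.05 was found for 2 rows by edgeR, both lower in PE/LPS, and for 2 rows each by DESeq2 and voom. By edgeR 0.573% of all genes had such a p with lower values and 0.703% with higher values in PE/LPS.

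One of them was COX1, the subunit of cytochrome c oxidase that holds the oxygen-reducing centre. Its 7 PE/LPS pieces ran from 627.5 through a median of 1218 to 1838 CPM, and the control sheep 7, 9, 10 and 18 had 3114, 1943, 1914 and 2578 CPM. All control pieces were thus above all PE/LPS pieces in CPM, with means of 1246 ± 378.9 CPM in PE/LPS (SD, n = 7) and 2387 ± 573.1 CPM in control pieces (SD, n = 4). This separation depends on the scaling, since the printed CPM carry no TMM factors. Over the 18 pieces the factor was 0.957 for PE/LPS sheep 15 (1838 CPM) and 1.024 for control sheep 10 (1914 CPM). Dividing by these factors puts PE/LPS sheep 15 above control sheep 10, so that the groups overlap. COX1 was the 1 row of 15 whose ranges of unscaled CPM did not overlap, lower in PE/LPS, which held for 0.0709% of the genes tested. The log2 fold change was -0.95 (SE 0.361, 95% interval -1.72 to -0.18, p = 0.0187, adjusted p = 1 in edgeR's quasi-likelihood test) and kept its sign in all 26 alternatives, between -1.08 and -0.75.

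The other was KEF53_t22, with 3.203 to 17.01 CPM in PE/LPS pieces (median 4.099) and 18.08, 51.46, 7.684 and 13.18 CPM in control sheep 7, 9, 10 and 18. The groups overlapped, and control sheep 9 stood far above the other control sheep. The log2 fold change was -1.83 (SE 0.579, p = 0.00644, adjusted p = 1 in edgeR's quasi-likelihood test). It was -0.77 without control sheep 9 and -0.43 against the LC control pieces alone. KEF53_r01 had the smallest p among rows with higher values in PE/LPS (0.44, SE 0.598, p = 0.476, adjusted p = 1 by edgeR). It was -0.26 without sheep 2.

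Saline pieces were compared with the same 4 control pieces, which the comparison above also used. With edgeR's quasi-likelihood test 0 of 15 rows and 0 of 18289 genes (0%) were called; DESeq2 called 6 genes (0.0328%) and voom 0 (0%), none of them mitochondrial. The rows were 2 positive and 13 negative, with a median of -0.27 against 0.01 over all genes (51.5% positive). The median was 0.005 without control sheep 7 and -0.43 without control sheep 10. COX1 and COX2 had an unadjusted p under 0.05, where 3.25% of all genes had such a p with lower values in saline and 1.66% with higher values.

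COX1 ran from 901.5 through 1225 to 2233 CPM in saline pieces, and the 2 lowest control pieces, at 1914 and 1943 CPM, lay inside this range. Its log2 fold change was -0.79 (SE 0.354, p = 0.0401, adjusted p = 0.939 in edgeR's quasi-likelihood test). COX2, which carries the copper centre that takes electrons from cytochrome c, ran from 1289 through 1349 to 1709 CPM in saline pieces and was at 2416, 1438, 2630 and 1527 CPM in control sheep 7, 9, 10 and 18. Sheep 7 and 10 stood above all saline pieces, and sheep 9 and 18 did not. The log2 fold change was -0.62 (SE 0.273, p = 0.0374, adjusted p = 0.939 in edgeR's quasi-likelihood test).

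Both genes kept their sign in all 25 alternatives of this comparison. No row had ranges without overlap (0 of 15), where 0.0984% of all genes were lower in every saline piece than in any control piece. KEF53_r02 had the smallest p among rows with higher values in saline (0.23, SE 0.314, p = 0.485, adjusted p = 0.955 by edgeR).

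Since code and treatment coincide in exposed sheep, LC was compared with RA among the 4 control sheep, 2 pieces each. In edgeR's quasi-likelihood test 0 of 15 rows and 0 of 18063 genes (0%) were called, while DESeq2 called 51 genes (0.282%) and voom 1 (0.00554%), none of them mitochondrial. The mitochondrial share was 1.312% and 1.589% in LC pieces and 1.685% and 0.768% in RA pieces, so the RA pieces enclosed the LC pieces. The rows were 5 positive and 10 negative (median -0.40, against 0.02 over all genes, 51.3% positive). The median was 0.14 without sheep 7.

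KEF53_t22 was the 1 row with an unadjusted p under 0.05, where 2.06% of all genes had such a p with lower values in LC and 1.65% with higher values. It had 7.684 and 13.18 CPM in LC pieces, against 18.08 and 51.46 CPM in RA pieces (log2 fold change -2.11, SE 0.634, p = 0.0101, adjusted p = 0.987 in edgeR's quasi-likelihood test). With no filter on low counts this row was called. Among rows with higher values in LC, ND4 had the smallest p (0.86, SE 0.666, p = 0.234, adjusted p = 0.987 by edgeR).

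The difference between the PE/LPS to saline contrast and the LC to RA contrast of the control sheep was tested over all 18 pieces with limma voom. None of 15 rows was called, nor was any of 19162 genes (0%), and 0 rows had an unadjusted p under 0.05, where 5.54% of all genes did. The smallest p was that of KEF53_r01 (difference of contrasts 1.77, SE 0.876, p = 0.0559, adjusted p = 0.747 by voom). The median over the rows was 0.30, against -0.08 over all genes.

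Sheep differed from each other more than lobes within a sheep did for CYTB, the subunit that passes electrons through complex III. In sheep 1 it had 141.1 CPM in the PE/LPS piece and 111.9 CPM in the saline piece, in sheep 2 170.8 CPM in its PE/LPS lobe and 135.9 CPM in its saline lobe, in sheep 15 117.1 CPM in its PE/LPS lobe and 73.11 CPM in its saline lobe, and in sheep 16 72.43 CPM in its PE/LPS lobe and 111.8 CPM in its saline lobe. In sheep 8 it had 16.87 CPM in its PE/LPS lobe and 14.97 CPM in its saline lobe, in sheep 11 10.71 CPM in its PE/LPS lobe and 15.87 CPM in its saline lobe, and in sheep 14 14.56 CPM in its PE/LPS lobe and 12.3 CPM in its saline lobe. Control sheep 7 and 18 had 160.1 and 107.4 CPM, and control sheep 9 and 10 had 18.13 and 19.83 CPM. The 18 pieces thus fell on either side of a 3.65-fold gap between 19.83 and 72.43 CPM, 8 below and 10 above, and both lobes of a sheep lay on the same side in 7 of 7 sheep. The gap was the widest of this gene and was taken from these same values. The share of all genes that split the sheep in such a way was not counted.

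Each side held 1 LC and 1 RA control piece. The log2 ratio between the lobes of a sheep had an SD of 0.49 over the 7 sheep and was at most 0.68 in size. The SD of log2 CPM over all pieces, control pieces included, was 1.54, and its median SD between the libraries of a piece was 0.16. The sheep term of the within-sheep edgeR fit, a test added after these values had been seen, gave for CYTB F = 21.1 on 6 degrees of freedom, p = 7.62e-06 and an adjusted p of 0.00649 (Benjamini-Hochberg over 16944 genes, quasi-likelihood test; rank 19). CYTB was the 1 mitochondrial row among 29 genes called (0.171% of those tested). Voom called 28 (0.165%), CYTB included, with an adjusted p of 0.0047. The edgeR adjusted p was 0.0655 without sheep 11, 0.421 without the 3 sheep whose titles carry further characters and 0.116 without those with libraries S46 to S54, all with fewer sheep in the fit; over all alternatives it ran from 2.43e-05 to 0.421.

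COX3 had the widest spread over pieces of the tested protein-coding rows, its highest level being 25.7 times its lowest. It was at 1762, 2956 and 1347 CPM in the PE/LPS pieces of sheep 1, 15 and 16 and at 2323, 2532 and 2465 CPM in their saline pieces. It was at 115.1, 189.2 and 455.1 CPM in the PE/LPS pieces of sheep 8, 11 and 14 and at 461.8, 208.6 and 286.8 CPM in their saline pieces. Sheep 2 had 397.6 CPM in the PE/LPS piece and 2685 CPM in the saline piece, and control sheep 7, 9, 10 and 18 had 1872, 160.3, 601.7 and 2739 CPM. Its widest gap, 2.24-fold, lay between 601.7 and 1347 CPM with 9 pieces on each side, and 6 of 7 sheep had both lobes on the same side, sheep 2 being the exception.

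The pieces low in CYTB were also low in COX3, and the PE/LPS piece of sheep 2 was high in CYTB but low in COX3. For COX3 the sheep term gave p = 0.00274 and an adjusted p of 0.442 in edgeR's quasi-likelihood test. For the sheep term 4 of the 15 rows had an unadjusted p under 0.05, where 3.52% of all genes did; the other two were ND1 (p = 0.00417, adjusted p = 0.579) and ND4L (p = 0.0191, adjusted p = 1) in the same edgeR test. COX2 and ND3 had the narrowest ranges over the 18 pieces, with highest levels 2.40 and 2.34 times their lowest.

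**Figure D5:**
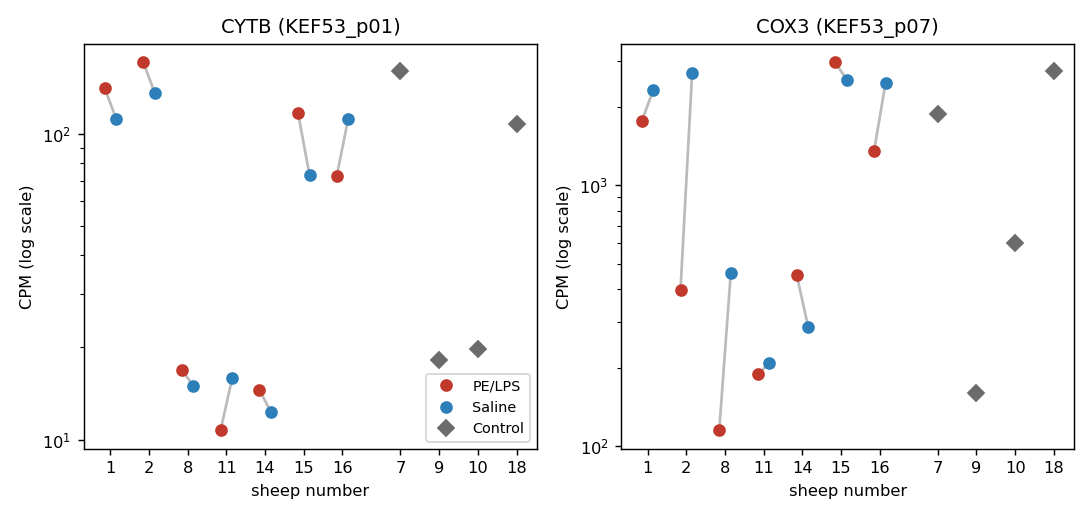
CPM of CYTB (left) and COX3 (right) on log axes by sheep; red is PE/LPS, blue saline and grey control, and lines join the lobes of a sheep. CYTB is at or above 72.43 CPM, or at or below 19.83 CPM, in both lobes of each sheep, and COX3 of sheep 2 differs between its lobes.

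Nuclear genes that act with the mitochondrial genome showed no calls in the within-sheep comparison. Of 34 tested oxidative phosphorylation genes, 22 were positive and 12 negative in PE/LPS versus saline (median log2 fold change 0.19). These were the genes found of a list of 50; they include 4 of complex II, which has no mitochondrial messenger, and 1 each of complexes III and IV (UQCRH and COX5A). Medians were 0.12 over 14 genes of mitochondrial DNA replication and transcription, 0.22 over 22 genes of mitochondrial RNA processing and decay and 0.07 over 28 mitochondrial ribosomal protein genes. They were 0.23 over 11 regulators of mitochondrial biogenesis, -0.03 over 16 genes of mitochondrial dynamics and mitophagy and -0.35 over 12 genes of the mitochondrial stress response.

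None of these genes was called by edgeR. The smallest p among those with lower values in PE/LPS belonged to PHGDH, the first enzyme of serine synthesis (log2 fold change -0.92, SE 0.313, p = 0.0115), and DDIT3, a stress-induced transcription factor (-0.71, SE 0.307, p = 0.038). Among those with higher values it belonged to MRPL45, a mitochondrial ribosomal protein (0.78, SE 0.323, p = 0.032), and NDUFB3, a complex I subunit (0.78, SE 0.345, p = 0.0425). Each had an adjusted p of 0.771 in edgeR's quasi-likelihood test. The oxidative phosphorylation genes had a median of -0.19 in PE/LPS versus control (6 positive, 28 negative), -0.35 in saline versus control (2 positive, 32 negative) and -0.44 in LC versus RA of the control sheep (3 positive, 31 negative), with no gene called.

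None of the markers of other cells was called by edgeR in any comparison, and their part in the mitochondrial values was not tested. All 10 ciliated airway markers were lower in PE/LPS than in saline pieces by log2 fold change, 5 with an unadjusted p under 0.05 by edgeR. Of all genes tested, 3.25% had such a p with lower values. In LC versus RA of the control sheep all 10 were instead higher in LC (median log2 fold change 0.91). There 3 had an unadjusted p under 0.05 by edgeR, where 1.65% of all genes had such a p with higher values. The sums of the 10 markers ran from 147.6 to 616.2 CPM in PE/LPS, 513.0 to 776.4 CPM in saline and 256.8 to 775.8 CPM in control pieces. None of the 10 was at 0 in a group. The PE/LPS pieces whose titles carry further characters had the lowest of the PE/LPS sums. In all, 9 of 11 lung epithelial markers were also lower in PE/LPS than in saline pieces (median log2 fold change -0.59). Against control sheep, 5 were higher and 6 lower in PE/LPS pieces (median 0). In saline pieces 9 of 11 were higher than in control pieces (median 0.47). There 4 had an unadjusted p under 0.05 by edgeR, where 1.66% of all genes had such a p with higher values. Of 8 endothelial markers, 7 were higher (median 0.35). Of tissues rich in mitochondria, 13 striated muscle markers summed to 15.64 to 44.21 CPM in PE/LPS, 24.41 to 68.65 CPM in saline and 23.54 to 44.77 CPM in control pieces, with 1 marker at 0 in saline and 1 in control pieces. The 4 brown fat markers summed to 15.09 to 43.62 CPM in PE/LPS, 23.07 to 70.14 CPM in saline and 22.46 to 51.36 CPM in control pieces. Most of this was DIO2, an enzyme that activates thyroid hormone and is not confined to fat, at means of 26.1, 45 and 27.4 CPM in these groups (PE/LPS versus saline log2 fold change -0.62, p = 0.0366, adjusted p = 0.771 by edgeR). ADIPOQ, an adipocyte hormone, reached 16.0 CPM, and UCP1, the defining gene of brown fat, did not exceed 1.62 CPM. The 3 red cell precursor markers in the table summed to 1.517 to 45.37 CPM in PE/LPS, 0.349 to 18.47 CPM in saline and 1.821 to 46.83 CPM in control pieces, with SLC4A1 at 0 in each group. These sums were almost wholly HBB, a haemoglobin chain, at means of 17.9 CPM in PE/LPS, 5.36 CPM in saline and 14.2 CPM in control pieces (PE/LPS versus saline log2 fold change 1.88, SE 0.409, p = 0.000561, adjusted p = 0.771 by edgeR). HBB was also higher in LC than in RA pieces of the control sheep (log2 fold change 2.29, unadjusted p not under 0.05 by edgeR). The red cell sums there were 46.83 and 2.312 CPM in LC and 1.821 and 6.059 CPM in RA pieces. Treatment and code cannot be told apart for this gene.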

How the data were processed

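Lung RNA of 18 pieces was sequenced as 3 libraries each, primed on poly(A) with the index in the primer, per the labels' protocols. The authors deposited a table of raw counts per gene. The tools named in the submitters' processing notes are STAR 2.7.10b, Subread 1.6.3, featureCounts, Trimmomatic 0.39, FastQC 0.11.9 and edgeR 3.40.2; their roles and order are not stated there. No source used here gives the genome build, the strand setting or any use of molecular identifiers. Of the table, 2 items are not reported here, and 0 sample columns lacked a sample.

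The 3 libraries of a piece are not independent and were summed; sheep are the replicates. CPM values are counts scaled to a total of 1000000 per piece. Fold changes came from edgeR 4.0.16 in R 4.3.3 (TMM scaling, a filter at 10 counts and a total of 15, robust quasi-likelihood test, Benjamini-Hochberg over all genes tested), with DESeq2 1.42.0 and limma 3.58.1 (voom) as alternatives. TMM factors are not applied to the printed CPM. The fits were run on simulated counts with the same spread for every gene and changes larger than most of those above. That run does not show whether smaller changes could be found in these data. Sheep number was a block in PE/LPS versus saline, because the series describes both lobes of the same sheep. Comparisons that share pieces are not independent of each other.

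The mitochondrial rows and gene lists were chosen with earlier results of these data known. Every mitochondrial row was accounted for. Named with values were all protein-coding and ribosomal rows, the transfer RNA rows with the highest levels, rows with an unadjusted p under 0.05 and, in each comparison, the smallest p on each side; of nuclear genes, the 2 smallest p in each direction within sheep. Cell type markers named singly were chosen after their values were seen. The test of the sheep term, its alternatives and those of the difference of contrasts, and the setting without the shallow library of PE/LPS sheep 11, were chosen after seeing the data. No test was run over the rows together. The 4 control pieces limit the precision of every comparison with them.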

Additional observations from a re-analysis of the deposited data

Results flagged for a closer look

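In groups of 4 to 10 pieces, a sample was picked out where its gap to the nearest other was large for the range of its group; chance picks about 1 in 20 groups. Of 51 groups checked, 2 were picked, both among PE/LPS pieces. KEF53_r01 had 3758 CPM in the PE/LPS piece of sheep 2, and the next highest PE/LPS piece had 1814 CPM (gap over range 0.583). ND3 had 863.0 CPM in the PE/LPS piece of sheep 16, and the next highest PE/LPS piece had 569.2 CPM (gap over range 0.604).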

How the results depend on the processing

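Among the mitochondrial rows, 1215 of 1301 single fold changes kept their direction and side of the threshold, 85 changed sign and 1, KEF53_t22 in LC versus RA, became a call. In PE/LPS versus saline, with no replicate block 0 rows were called and the median log2 fold change was -0.20, against -0.23 in the paired fit; the block changed no call. In LC versus RA of the control sheep, 1 row was called with no low-count filter, and the median ran from -0.49 to 0.14 when single sheep were left out. For differences between the 7 sheep, 2 rows were called with no low-count filter (CYTB and COX3), 0 without the pieces whose titles carry further characters and 0 without those numbered S46 to S54; CYTB then had an edgeR adjusted p of 0.421 and 0.116. Leaving out single sheep gave 0 to 1 rows called and an edgeR adjusted p for CYTB of 0.00216 to 0.0655, the highest without sheep 11. Scaling by library totals alone moved the median over all genes to 0.16 in saline versus control and 0.26 in LC versus RA, with mitochondrial medians of -0.17 and -0.17. KEF53_t14 and the near-empty rows are limited by depth, and ND5 and ND6 could not be compared. The settings of the sheep test were chosen after seeing the data.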
